A study of Sus scrofa with 37 samples.

Results

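The genes described here are established markers of the endothelium, the cell layer that lines blood vessels, measured by RNA sequencing in the pancreas and in cultured pancreatic islets of pigs (Sus scrofa). The members were the gene symbols PECAM1, VWF, CDH5, KDR, FLT1, TEK, TIE1, ESAM, PLVAP and ENG, kept where an Ensembl pig identifier in the count tables maps to the symbol. Of the 10 symbols 9 had a row and VWF had none, so the account covers 9 of 25880 gene identifiers. The identifiers are ENSSSCG00000017277 for PECAM1, ENSSSCG00000035772 for CDH5, ENSSSCG00000008844 for KDR, ENSSSCG00000009320 for FLT1, ENSSSCG00000005122 for TEK, ENSSSCG00000003950 for TIE1, ENSSSCG00000015200 for ESAM, ENSSSCG00000037025 for PLVAP and ENSSSCG00000005625 for ENG. No genome of the build named by the submitters was used here, so no coordinates or sequences are given.

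The study sampled a 50 mg piece of pancreas from the duodenal lobe when the organ was retrieved, and islets purified from the pancreas and kept floating in culture for 7 days. All libraries but 1 carry a label of High or Low islet density, and how density was measured is not stated in the labels. Count columns were matched to 35 of 37 samples. In the pancreas 8 are labelled High and 9 Low, among islets 8 are High and 9 Low, and 1 further islet library has no density label. There were 16 animals with both tissues counted, of which 4 carry different density labels in the 2 tissues. The labels give no strain, sex, age or treatment, and nothing says how many islets were pooled for a library. All islet libraries were cultured and no pancreas library was, so tissue and culture cannot be told apart.

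Endothelial cells hold together through junction proteins and sense growth factors through receptors at their surface. Vascular endothelial growth factors (VEGFs) bind KDR and FLT1, and the angiopoietins bind TEK, with which TIE1 forms complexes. Islets in the pancreas are supplied by a dense bed of capillaries whose endothelium is perforated by small windows, and PLVAP builds the diaphragms that close such windows.

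The tissue labels fitted the marker genes. The summed level of 13 acinar (digestive enzyme) genes was 12640 to 287800 CPM (a gene's count divided by the library's total and multiplied by 1000000) in the pancreas and 5.52 to 556 CPM in islets. The summed level of 15 endocrine genes was 300.3 to 15640 CPM in the pancreas and 54300 to 97620 CPM in the labelled islet libraries. Depth was uneven. Islet libraries held 3237653 to 6702589 counts and High pancreas libraries 1855075 to 3922006, but 7 of the 9 Low pancreas libraries held only 265000 to 536014. In these 7 the 9 endothelial genes together had 33 to 97 counts per library, against 441 to 1483 in the other pancreas libraries and 326 to 1556 in islets, and 3 counts corresponded to 5.60 to 11.3 CPM. The same 7 libraries had an acinar level of 12640 to 33320 CPM, against 108000 to 287800 CPM in the other 10. The islet library without a density label (animal 12AS51) also stood apart. A single gene took 43.5% of its counts, its endocrine level was 8398 CPM, and it had the lowest CPM of the 18 islet libraries for all 9 endothelial genes. Its scaling factor (TMM, described with the tests) was 0.123, and on the scaled level it was instead the highest islet library for PLVAP (190.0, next 184) and ENG (54.5, next 32.2) and second highest for CDH5 (25.4) and FLT1 (50.8). Without it the tissue difference of PLVAP was -0.87 and that of ENG -0.58 on the log2 scale, and both passed the test. Its source name reads pancreas, as does that of the High islet library of animal 11KS28, while both titles say islets.

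**Figure D1:**
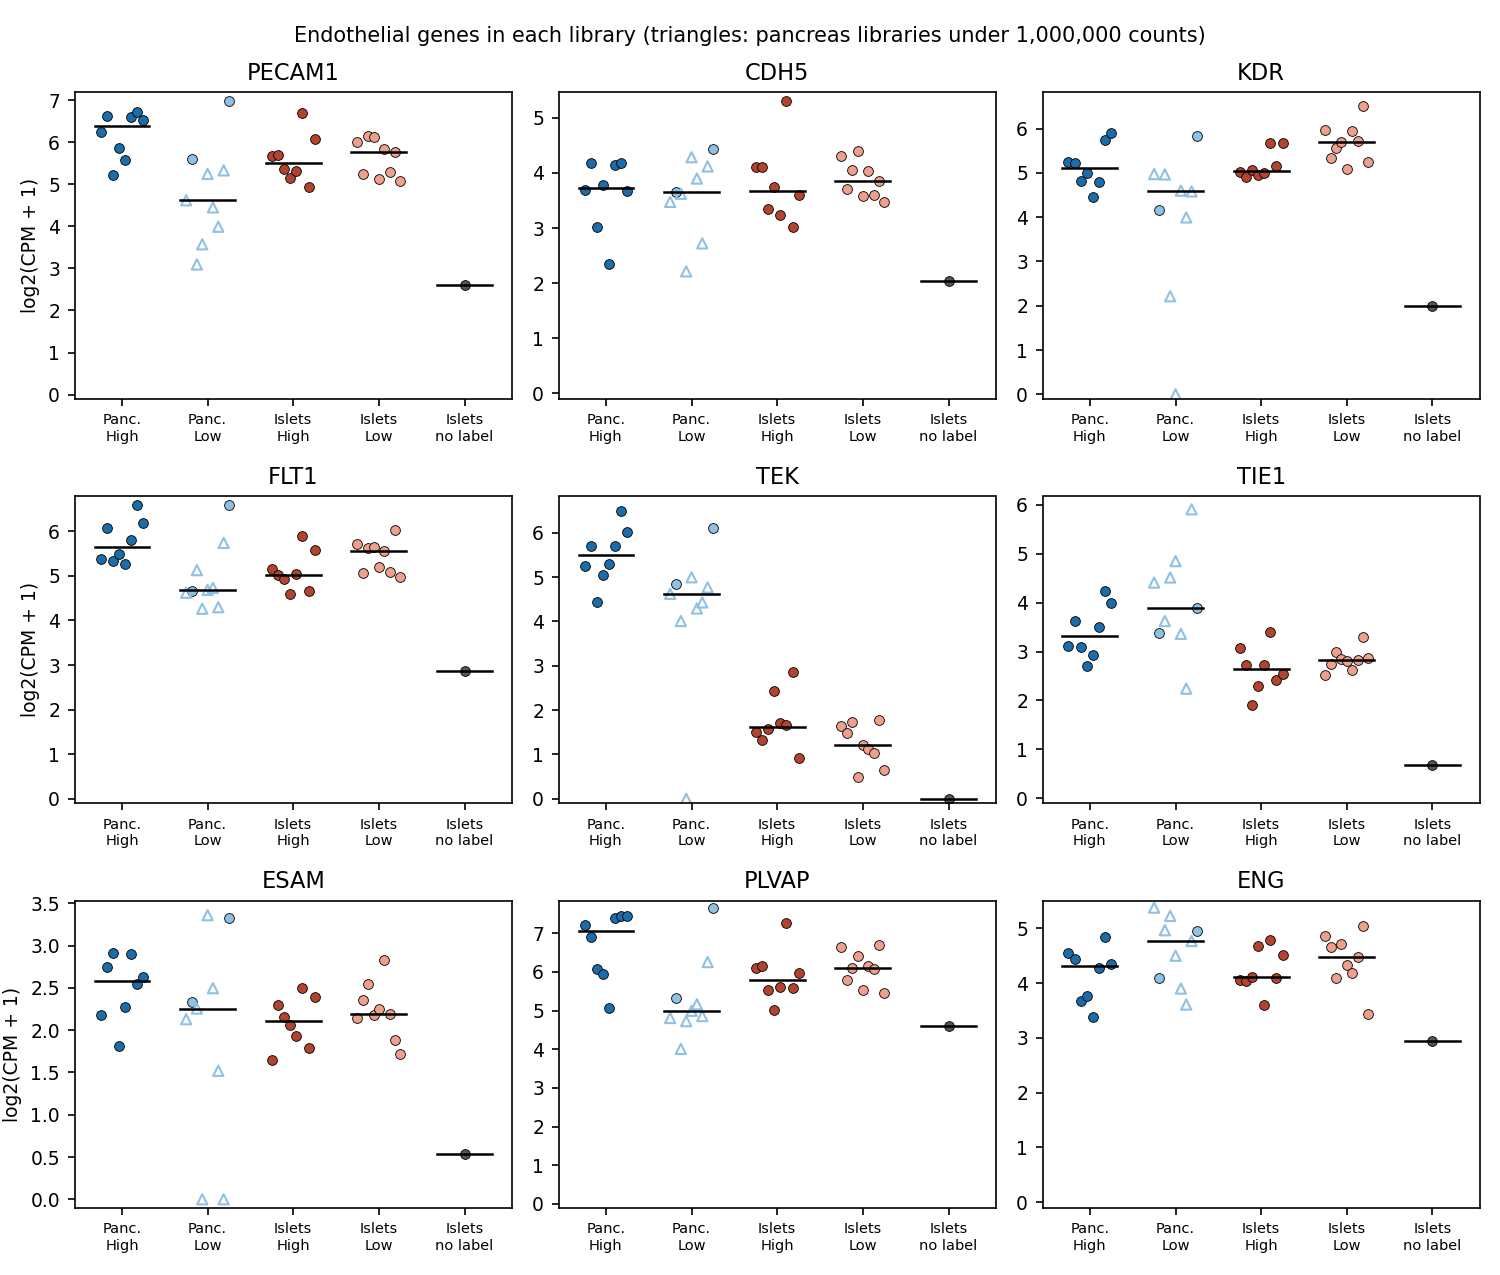
Level of each endothelial gene in each library as log2(CPM + 1), by tissue and density label. Points are libraries, horizontal lines are group medians, and open triangles are the 7 pancreas libraries under 1000000 counts. TEK lies at 0 to 6.27 CPM in islets and, outside 1 pancreas library at 0, above that range in the pancreas, while the other genes overlap between the tissues.

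Islets were compared with pancreas first, to ask which endothelial transcripts differ between whole pancreas and islets after culture. TEK, TIE1, ESAM, FLT1, PECAM1 and PLVAP were lower in islets, and no member was higher. TEK, the receptor tyrosine kinase of the angiopoietins, fell by far more than the rest, 28.2-fold on the fitted scale, and its relative TIE1 fell 3.22-fold. KDR and CDH5 showed no difference that passed the test. The 6 of 9 members that fell stand beside 31.5% of all 12339 tested genes that fell, 31.1% that rose and 62.6% that changed in either direction, so a change between these tissues was common. Fold changes here are scaled for library makeup by the trimmed mean of M-values (TMM), and p-values come from edgeR's quasi-likelihood test, adjusted over all tested genes by the Benjamini-Hochberg method, with a threshold of 0.05. Because the median TMM factor was 0.876 in the pancreas and 1.35 in islets, a fold change can differ from the ratio of mean CPM. In bulk tissue, fewer endothelial cells and less RNA of a gene per cell cannot be told apart.

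Among the angiopoietin receptors, TEK ranged from 0 to 89.0 CPM in the 17 pancreas libraries, with a median of 30.9. In the 18 islet libraries TEK ranged from 0 to 6.27 CPM, with a median of 1.83. Every islet library was low, and the ranges touched only through the shallow Low pancreas library of animal 14ES72, which had 0 TEK counts among 33 endothelial counts. A count of 0 there allows a share of up to 9.09% of the endothelial counts, or 10.9 CPM, counting error only. The log2 fold change of TEK was -4.82 (SE 0.28, 95% interval -5.39 to -4.25, adjusted p = 4.63e-18), an interval that meets that of no other member. The scaled level of TEK was lower in the islets of 15 of 16 animals. Over 12 alternatives in which TEK was tested the log2 fold change lay between -5.06 and -4.44, and leaving out any 1 library gave -5.03 to -4.73. In the RefSeq annotation of Sscrofa11.1, TEK overlaps the protein-coding gene LOC102166359, and the strand setting of the counting is not given in the sources used here, so reads of this pair cannot be told apart.

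TIE1, an orphan receptor that modulates TEK signalling, ranged from 3.73 to 59.0 CPM in the pancreas (median 11.3) and from 0.597 to 9.57 CPM in islets (median 5.66). The tissues overlapped in CPM, but the scaled level was lower in the islets of 16 of 16 animals. Its log2 fold change was -1.69 (SE 0.24, adjusted p = 8.07e-08), and it passed the test in all 13 alternatives, with values from -2.06 to -1.26. Both receptors of this family therefore had lower levels in islets, by different amounts.

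Of the VEGF receptors, KDR, the main signalling receptor, ranged from 0 to 58.5 CPM in the pancreas (median 26.99) and from 2.98 to 89.5 CPM in islets (median 38.4). The ranges overlapped almost completely. The log2 fold change was -0.05 (SE 0.21, 95% interval -0.47 to 0.36, adjusted p = 0.836). This interval lies within a doubling either way, but only for the fit of all libraries. Over 13 alternatives the value lay between -0.52 and 0.60. The direction changed with the scaling, at 0.01 with relative log expression (RLE) scaling and -0.17 with upper-quartile scaling. The scaled level of KDR was lower in the islets of 10 of 16 animals, and its CPM in only 5. FLT1, which binds VEGF-A tightly and has a soluble decoy form, ranged from 18.2 to 95.5 CPM in the pancreas (median 39.0) and from 6.27 to 64.3 CPM in islets (median 33.9). FLT1 fell by 0.76 on the log2 scale (SE 0.18, adjusted p = 0.000439), and its scaled level was lower in the islets of 12 of 16 animals.

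Of the junction genes, PECAM1, an adhesion molecule also present on platelets and leukocytes, ranged from 7.55 to 125 CPM in the pancreas (median 47.2) and from 5.07 to 102 CPM in islets (median 45.1). Its log2 fold change was -0.72 (SE 0.24, adjusted p = 0.00865). The scaled level of PECAM1 was lower in the islets of 12 of 16 animals, but its CPM in only 8. ESAM, an adhesion molecule of endothelial tight junctions, was the least counted, at 0 to 9.26 CPM in the pancreas (median 4.03) and 0.448 to 6.13 CPM in islets (median 3.50). It fell by 0.95 on the log2 scale (SE 0.22, adjusted p = 0.000242), although its counts ran from 0 to 26 per library. CDH5, the cadherin of endothelial junctions, ranged from 3.64 to 20.7 CPM in the pancreas (median 11.9) and from 3.13 to 38.6 CPM in islets (median 12.3). Its difference of -0.25 (SE 0.24, 95% interval -0.74 to 0.23, adjusted p = 0.368) did not pass. With the animal as a block it passed, at -0.51 (adjusted p = 0.0458), and it also passed without the High islet library of animal 15AS28, at -0.50 (adjusted p = 0.0202).

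PLVAP ranged from 15.1 to 200.0 CPM in the pancreas (median 60.6) and from 23.4 to 152 CPM in islets (median 64.2). Its scaled level was lower in the islets of 10 of 16 animals, and its CPM in 7. Its difference of -0.68 (SE 0.30, adjusted p = 0.0451) lay close to the threshold, and the call was lost in 8 of 13 alternatives. It was also lost on leaving out any 1 of 20 of the 35 libraries (adjusted p up to 0.0890): Islets High replicates 1 to 5, 7 and 8, Islets Low replicates 2 to 7 and 9, Pancreas High replicates 1, 2, 6, 7 and 8, and Pancreas Low replicate 9. ENG, a co-receptor for transforming growth factor beta family ligands, ranged from 9.43 to 40.5 CPM in the pancreas (median 20.6) and from 6.71 to 31.8 CPM in islets (median 18.2). Its difference of -0.46 (SE 0.21, adjusted p = 0.0598) missed the threshold. It passed with the animal as a block, at -0.68 (adjusted p = 0.00994), and PLVAP did not, at -0.62 (adjusted p = 0.0692). Leaving out 1 library brought ENG past the threshold for 7 libraries, with values from -0.58 to -0.50: the islet library without a density label, Islets High replicate 6, Islets Low replicate 8, Pancreas High replicates 3, 4 and 5, and Pancreas Low replicate 2. ENG overlaps FPGS, and PECAM1 a long non-coding RNA, in the same annotation, with the limit given for TEK.

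**Figure D2:**
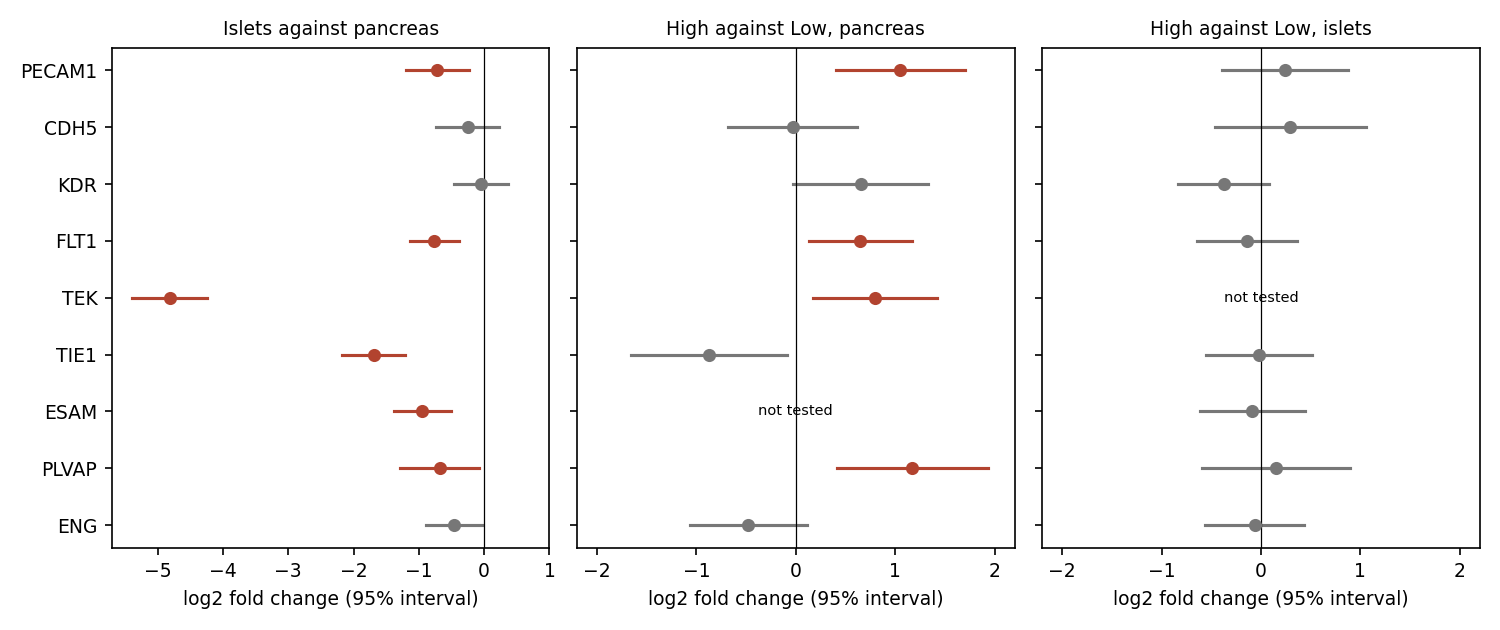
Log2 fold change of each endothelial gene with its 95% interval for islets against pancreas, High against Low in the pancreas, and High against Low in islets; red marks an adjusted p below 0.05. TEK at -4.82 stands apart in the first panel, 4 genes lie above 0 in the second, and every tested interval of the third crosses 0.

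The tissue difference was read again in the libraries that are not in doubt. With only the 10 deeper pancreas libraries the same count of 6 members fell, with TEK at -5.06, TIE1 at -1.31, PECAM1 and PLVAP both at -1.09 and FLT1 at -0.98. Over all genes 4161 of 12607 fell in that fit. Leaving out the 2 islet libraries with the pancreas source name as well, an alternative chosen after seeing the data, also gave 6. There 4366 of 12519 genes fell. Among High libraries alone 7 members fell, KDR included at -0.52 (adjusted p = 0.0442), beside 3552 of 11685 genes. Among Low libraries alone, where 7 of 9 pancreas libraries are shallow, 2 of 8 tested members fell, TIE1 (log2 -2.06) and ENG (-0.73). TEK did not pass the filter on low counts there. Over all genes 3714 of 12035 fell in that subset, so the members fell no more often than genes in general. PECAM1 (-0.19), FLT1 (-0.30), PLVAP (-0.18) and ESAM (-0.75) did not pass in that subset, and KDR had the opposite sign there, at 0.60 (SE 0.30, adjusted p = 0.0878). Without a filter on low counts 3 members fell, TEK, TIE1 and ESAM, beside 9282 of 24780 genes, so again no more often than genes in general. The calls of FLT1 (-0.40, adjusted p = 0.115), PECAM1 (-0.40, adjusted p = 0.221) and PLVAP (-0.40, adjusted p = 0.282) were lost. The median of all genes was -0.44 in that fit.

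The makeup of the endothelial counts was compared as each gene's share of the counts of all 9 genes in a library, which does not depend on scaling between tissues. The shares are not corrected for gene length and serve only to compare a gene between libraries. The shares of a library are tied to each other, so a lower share of TEK raises the sum of the others. A higher share of KDR is thus relative to the other members. The TEK share was 8.25% to 19.1% in the 16 pancreas libraries with a TEK count, with a median of 11.8%, and 0% to 3.65% in the 18 islet libraries, with a median of 0.670%. Apart from the 1 pancreas library at 0 counts the groups did not overlap. The KDR share had a median of 9.65% in the pancreas and 17.9% in islets, and was lower in the islets of only 2 of 16 animals. In the 10 deeper pancreas libraries it was 5.95% to 12.1%, against 11.3% to 24.2% in the labelled islet libraries. The KDR share of the 7 shallow pancreas libraries ran from 0% to 19.1%, and that of the unlabelled islet library was 6.14%, so over all libraries the tissues overlapped. The FLT1 share had medians of 15.5% in the pancreas and 15.7% in islets. The TIE1 share was 2.01% to 4.76% in the deeper pancreas libraries and 1.23% to 3.68% in islets, but 3.13% to 18.6% in the 7 shallow ones, where it rests on 2 to 18 counts. The ENG share likewise was 3.78% to 8.16% in the deeper pancreas libraries and 8.25% to 30.3% in the shallow ones, from 6 to 12 counts. In the unlabelled islet library, PLVAP made up 48.2% of the endothelial counts, against 18.8% to 34.2% in the other islet libraries.

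**Figure D3:**
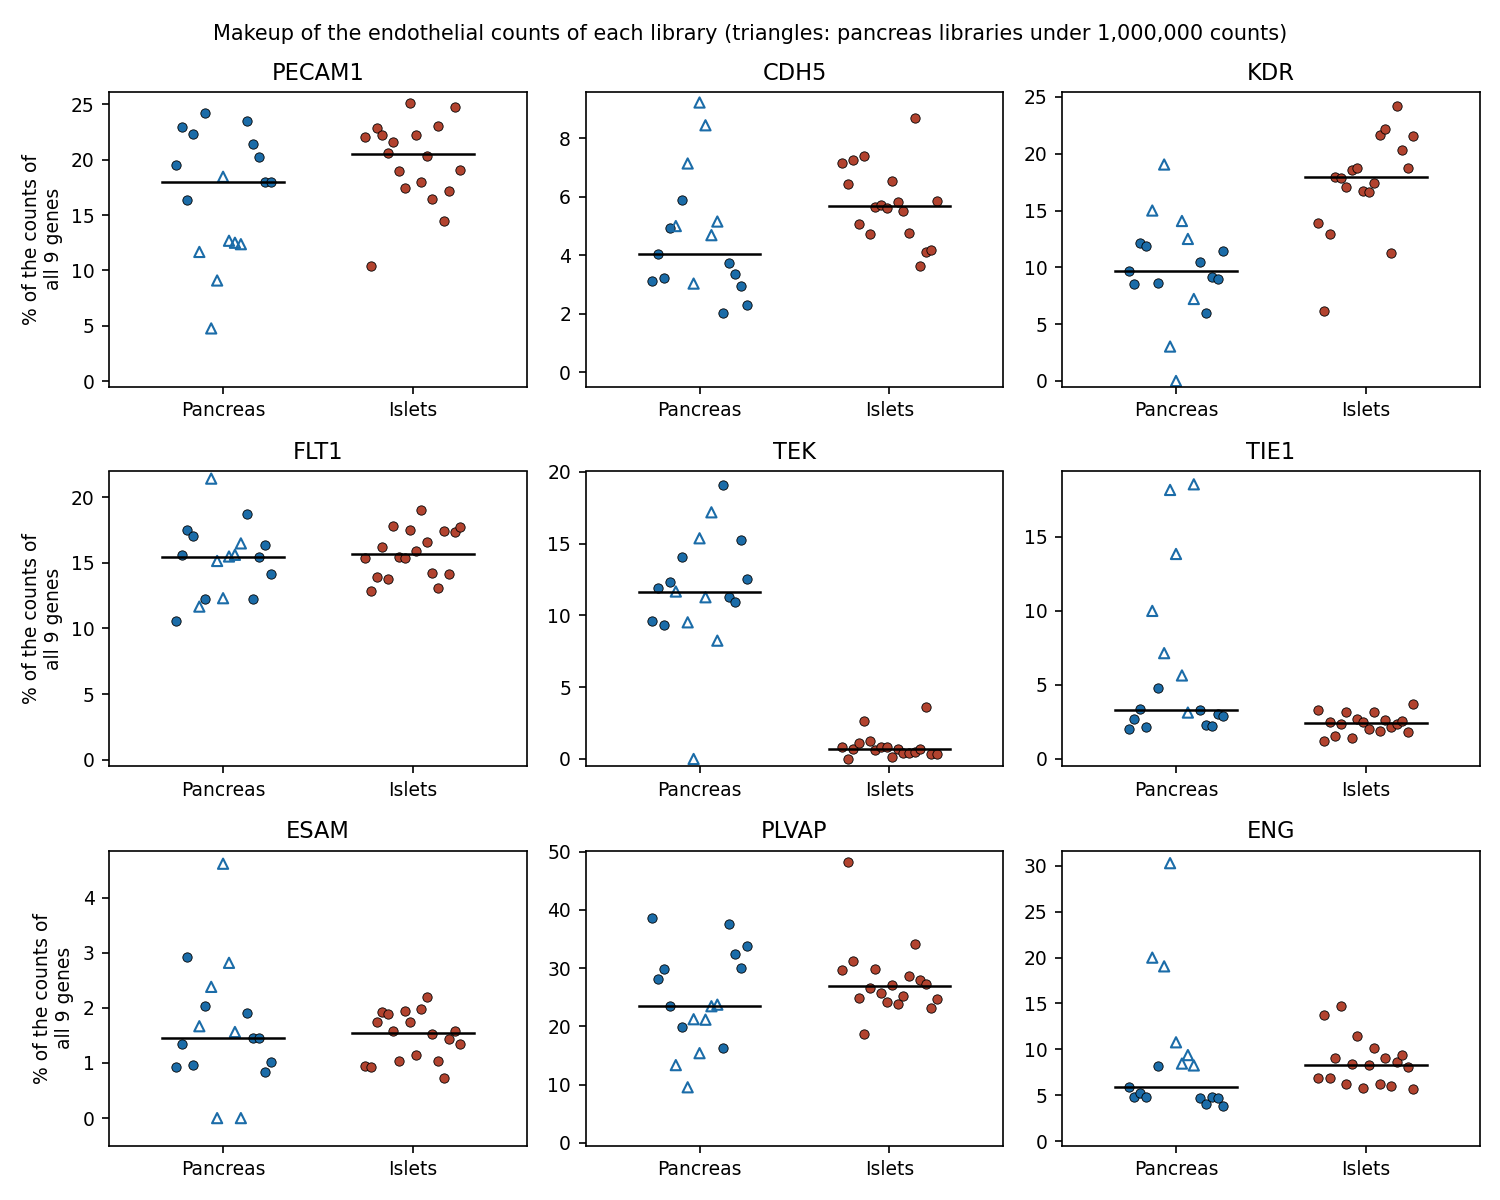
Share of each gene in the counts of all 9 endothelial genes of a library, in percent, by tissue; horizontal lines are medians and open triangles are the 7 pancreas libraries under 1000000 counts. The TEK share has a median of 11.7% over all 17 pancreas libraries and 0.670% in islets, the KDR share is higher in most islet libraries, and the shallow libraries hold the highest TIE1 and ENG shares.

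A wider list of 41 other endothelial genes gave the setting of these results. Of 33 with a row 25 were tested, and 20 fell while 1 rose in islets, with a median log2 fold change of -1.54 against -0.01 over all tested genes and -0.72 over the 9 members. EPHB4, a receptor of venous endothelium, fell by 3.04 (SE 0.26), and S1PR1, a sphingosine-1-phosphate receptor, fell by 2.63 (SE 0.27). VCAM1, an adhesion molecule induced in inflamed endothelium, fell by 2.65 (SE 0.37), each on the log2 scale (adjusted p = 1.57e-13, 3.42e-11 and 7.61e-08). The 1 gene that rose was ESM1, which encodes endocan, a proteoglycan that marks endothelial tip cells in mice. ESM1 ranged from 0 to 107 CPM in the pancreas (median 13.4) and from 19.5 to 925 CPM in islets (median 386). Most islet libraries were well above the pancreas, although the ranges overlapped, and the log2 fold change was 3.59 (SE 0.35, adjusted p = 1.24e-11). With the deeper pancreas libraries alone it was 3.17, and 3 genes rose and 19 fell of 25 tested.

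A list set around the VEGF and angiopoietin receptors, here called partner genes for short, was read too. Not all of its genes act on these receptors, since it also holds ANGPTL4 and genes of transforming growth factor beta family signalling, such as TGFBR2 and SMAD5. Of 24 with a row 15 were tested, and 2 rose and 10 fell. GRB10, an adaptor that binds receptor tyrosine kinases, fell by 3.49 (SE 0.22), and ANGPTL4, a secreted inhibitor of lipoprotein lipase, fell by 3.47 (SE 0.38). PTPRB, the vascular endothelial phosphatase that acts on TEK and CDH5, fell by 1.83 (SE 0.16), and TGFBR2, a receptor of transforming growth factor beta, fell by 1.79 (SE 0.20), all on the log2 scale with adjusted p of 5.89e-10 or lower. The 2 that rose, named after their values were seen, were SMAD5, by 0.39, and VEGFA, the main ligand of KDR and FLT1. VEGFA ranged from 60.7 to 329 CPM in the pancreas (median 138) and from 136 to 758 CPM in islets (median 416), a log2 difference of 1.14 (SE 0.19, adjusted p = 1.95e-06). With upper-quartile scaling 1 partner rose and 13 fell, with VEGFA still higher at 0.98.

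Genes of cells around and within vessels were read beside these results. Of 9 tested mural cell genes (pericytes and smooth muscle) 8 fell, among them MYH11 (log2 -3.07), NOTCH3 (-2.65), KCNJ8 (-2.49) and RGS5 (-2.09), and the summed level of 12 such genes was 99.5 to 498 CPM in the pancreas and 15.2 to 143 CPM in islets. Of 6 tested macrophage and leukocyte genes 4 fell, the scavenger receptor CD163 at -5.92, and the summed level of 10 was 43.9 to 262 CPM against 7.16 to 49.9 CPM. The lymphatic markers RELN and FLT4 fell, 2 of 3 tested. The summed level of that list was 46.5 to 165 CPM in the pancreas (median 80.2) and 10.3 to 104 CPM in islets (median 85.8). The value of 10.3 CPM is that of the unlabelled islet library, and the labelled ones ran from 73.5 to 104 CPM. PROX1 of that list had medians of 41.6 CPM in the pancreas and 73.4 CPM in islets, so the sum in islets was mostly PROX1. The other genes of the list had medians of 1.59 to 20.2 CPM in the pancreas and 0.752 to 3.74 CPM in islets. The sum therefore does not describe the list as a whole. Of 7 tested fibroblast genes 4 rose and 3 fell, and the summed level of 9 was 48.5 to 280 CPM in the pancreas and 63.1 to 622 CPM in islets. Of the platelet list only F13A1 was tested, and it fell. No gene of these lists was at 0 in every library of a tissue, and the part of these cells in the endothelial differences was not tested.

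**Figure D4:**
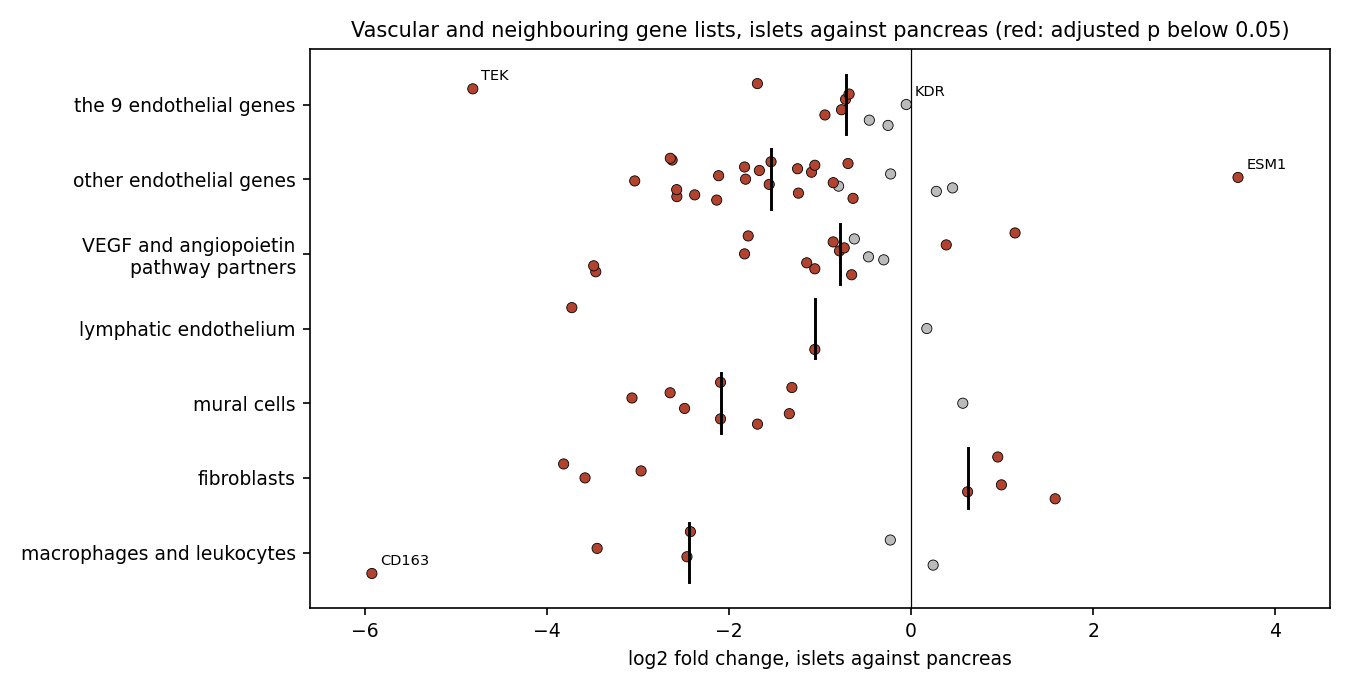
Log2 fold change of islets against pancreas for each tested gene of the 9 endothelial genes and of 6 other lists; red marks an adjusted p below 0.05 and vertical bars are list medians. TEK at -4.82 and ESM1 at 3.59 lie at opposite ends of the endothelial lists, whose medians are -0.72 and -1.54, and 8 of 9 mural genes lie below 0 in red.

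The second comparison asked whether endothelial transcripts differ in the pancreas by density label. PECAM1, PLVAP, TEK and FLT1 were higher in High than in Low pancreas, 1.57-fold to 2.25-fold on the fitted scale, and no member was called lower in this fit. That is 4 of 8 tested members, beside 18.8% of 10634 tested genes that were higher, 21.5% that were lower and 40.3% that differed in either direction. ESAM did not pass the filter on low counts. The median log2 fold change was 0.65 over the tested members and 0.07 over all tested genes. Low here means mostly the 7 shallow libraries with little acinar RNA, and 6 of these come from animals whose code begins with 14, a code that no High pancreas library carries.

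PECAM1 ranged from 36.4 to 105 CPM in High pancreas (median 83.3) and from 7.55 to 125 CPM in Low pancreas (median 23.6). The groups overlapped through 2 deeper Low libraries, at 47.9 and 125 CPM, and 2 shallow libraries, at 37.0 and 39.3 CPM. The log2 fold change was 1.05 (SE 0.32, adjusted p = 0.0114). PLVAP ranged from 32.6 to 175 CPM in High (median 134) and from 15.1 to 200.0 CPM in Low (median 30.9), a log2 difference of 1.17 (SE 0.37, adjusted p = 0.0146). TEK ranged from 20.8 to 89.0 CPM in High (median 44.5) and from 0 to 67.4 CPM in Low (median 23.6), with 0.80 (SE 0.30, adjusted p = 0.0399). FLT1 ranged from 37.5 to 95.4 CPM in High (median 49.6) and from 18.2 to 95.5 CPM in Low (median 24.7), with 0.65 (SE 0.25, adjusted p = 0.0425). In each of these 4 genes the highest Low library was that of animal 15LS30, one of the 2 deeper ones, which lay within or above the range of the High libraries.

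KDR ranged from 20.9 to 58.5 CPM in High (median 33.5) and from 0 to 56.2 CPM in Low (median 22.9), and its difference of 0.65 (SE 0.33, adjusted p = 0.111) did not pass. CDH5 lay at 4.08 to 17.3 CPM in High and 3.64 to 20.7 CPM in Low, with a difference of -0.03 (SE 0.31, adjusted p = 0.948). TIE1 and ENG had estimates in the other direction. TIE1 ranged from 5.56 to 17.8 CPM in High and from 3.73 to 59.0 CPM in Low, with -0.87 (SE 0.38, adjusted p = 0.0687). ENG ranged from 9.43 to 27.5 CPM in High and from 11.2 to 40.5 CPM in Low, with -0.48 (SE 0.29, adjusted p = 0.180). ESAM, untested, had 2.50 to 6.50 CPM in High and 0 to 9.26 CPM in Low, where 2 libraries had no count.

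No member passed with the deeper libraries alone, a comparison with few Low libraries. With pancreas libraries of at least 1000000 counts, 8 High against 2 Low, edgeR called 0 of 9 members and 0 of 13217 genes, with PECAM1 at 0.34, PLVAP at 0.52, TEK at 0.49 and FLT1 at 0.43. With the first digits of the animal's code in the model 0 members passed, and with the acinar level as a covariate 0 members and 0 of 10634 genes passed, and PECAM1 turned to -0.15 (adjusted p = 0.997). Leaving out Low replicate 1, 3, 4, 5 or 6, all shallow, cut the count to 2, PECAM1 and PLVAP. The FLT1 call was also lost without Low replicates 2 and 7 or High replicate 2, and the TEK call without Low replicates 2 and 8 or High replicate 7 (adjusted p up to 0.106). Without the library of animal 15LS30, 5 members were higher, KDR added at 0.84, and TIE1 was lower at -1.07 (adjusted p = 0.0242). Over all genes 2505 of 10419 were higher and 2487 lower in that fit. TIE1 was also called lower by DESeq2 (-0.90, adjusted p = 0.0439), beside 4 members higher, and ENG was called lower among animals labelled alike in their islet and pancreas libraries (-1.14, adjusted p = 0.00750), beside 2 of 6 tested members higher. TIE1 also passed as lower without Low replicate 2 or 7, and ENG without Low replicate 2, at -0.68 (adjusted p = 0.0489). With upper-quartile scaling, which moved the median of all genes from 0.07 to -0.11, 2 members were higher and TIE1 was lower (-1.09, adjusted p = 0.0324), and over all genes 1467 were higher and 2772 lower in place of 1998 and 2285.

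Other endothelial genes were called in both directions in the pancreas. Of 23 tested, 2 were higher and 8 lower in High pancreas, with a median of -0.64. GJA5, a connexin of arterial endothelium, had a mean of 1.595 ± 1.85 CPM in High (SD, n = 8) and 7.78 ± 5.31 CPM in Low (SD, n = 9), and NOS3, the endothelial nitric oxide synthase, 5.29 ± 3.32 and 22.8 ± 10.1 CPM. Their log2 fold changes were -2.33 (SE 0.61, adjusted p = 0.00489) and -2.15 (SE 0.46, adjusted p = 0.000952). In the 7 shallow Low libraries 3 counts correspond to 5.60 to 11.3 CPM, so the Low mean of GJA5 lies at the level of a few counts there. ARHGEF15, a guanine nucleotide exchange factor of endothelial cells, was lower by -1.91 (SE 0.52), and VCAM1 was higher by 1.87 (SE 0.54). Of 16 partner genes 1 was higher and 4 lower, GRB10 by 1.02 and FLT4, TGFB1 and PLCG1 among the lower, at -2.65, -1.78 and -1.06. With the deeper libraries alone 0 genes of either list were called.

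Markers of other cells moved with the density label in the pancreas. All 13 acinar and 6 of 8 duct genes were higher in High. Lower in High were 4 of 9 mural, 4 of 7 macrophage and leukocyte and 5 of 13 endocrine genes. So were 2 of 3 lymphatic, 1 of 7 fibroblast, 1 platelet and 1 erythroid genes. The remaining tested gene of the lymphatic list, PROX1, was higher. The summed platelet level was 11.2 to 94.3 CPM in the 7 shallow libraries, against 4.17 to 20.1 CPM, the erythroid level 24.3 to 64.2 against 0.556 to 17.3 CPM, and the macrophage and leukocyte level 87.7 to 262 against 43.9 to 204 CPM. The duct level was 440.2 to 835 CPM against 2459 to 4161 CPM. The summed endocrine level was 645.8 to 3295 CPM in High (median 1123) and 300.3 to 15640 CPM in Low (median 464). In Low it was 300.3 to 648.6 CPM in the 7 shallow libraries, and 815.8 and 15640 CPM in the 2 deeper ones. The sum was thus higher in High by its median, although the 5 endocrine genes called were lower. Of these lists, 1 erythroid gene was at 0 in both deeper Low libraries. Their part in the endothelial differences was not tested.

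In cultured islets no tested endothelial gene was called by density label. The edgeR quasi-likelihood test called 0 of 8 tested members and 0 of 12070 genes, which is 0.0% in each direction, and DESeq2 and limma-voom also called 0. At an unadjusted p below 0.05 there were 0 members and 257 genes. TEK did not pass the filter on low counts. PECAM1 had 29.4 to 102 CPM in High islets (median 45.1) and 32.8 to 69.6 CPM in Low islets (median 53.5). KDR had 29.1 to 50.1 CPM in High (median 32.04) and 32.8 to 89.5 CPM in Low (median 51.1), the estimate farthest from 0 among the members, -0.38 (SE 0.22, 95% interval -0.83 to 0.08, adjusted p = 0.999). FLT1 had 23.2 to 58.1 CPM in High and 30.5 to 64.3 CPM in Low, and PLVAP 31.5 to 152 and 42.5 to 103 CPM. The 95% intervals of the 8 members ran from -0.83 to 1.06 on the log2 scale, so differences of about a doubling are within them. The library of animal 15AS28 had the highest CPM among High islets for 7 of 9 members. Without it the estimates of all 8 tested members were below 0, with PECAM1 at -0.18, CDH5 at -0.28 and PLVAP at -0.38 in place of 0.24, 0.30 and 0.15, KDR at -0.60 and FLT1 at -0.45, and 0 members passed. The members' median moved from -0.04 to -0.29. TEK had 0.906 to 6.27 CPM in High (3 to 23 counts) and 0.416 to 2.44 CPM in Low (2 to 12 counts), and the groups overlapped. The same counts of 0 held for the other endothelial, partner, mural, lymphatic, platelet, macrophage, fibroblast, acinar, endocrine and duct genes.

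The difference between the 2 density effects was tested directly, as the High minus Low difference in islets minus that in the pancreas. KDR and FLT1 passed, with a lower High minus Low difference in islets than in the pancreas, which is 2 of 9 members beside 17.7% of 14337 tested genes lower, 22.2% higher and 39.9% in either direction. The KDR value was -1.25 (SE 0.38, adjusted p = 0.00971) and the FLT1 value -1.02 (SE 0.34, adjusted p = 0.0176). PLVAP, at -1.22 (SE 0.51, adjusted p = 0.0533), and PECAM1, at -0.97 (SE 0.43, adjusted p = 0.0684), missed the threshold. The values of TEK (-0.04), CDH5 (0.08), ENG (0.10), ESAM (-0.46) and TIE1 (0.50) did not pass. With the animal as a block 4 members passed, PECAM1 at -1.94 (adjusted p = 0.00145) and PLVAP at -2.08 (adjusted p = 0.00155) added. There 3441 of 14973 genes were lower and 2940 higher. With the deeper pancreas libraries alone 0 passed, with KDR at -0.95 (adjusted p = 0.360) and FLT1 at -0.64 (adjusted p = 0.597). In that fit 52 of 15210 genes were higher and 9 lower, so calls were lost over all genes. With upper-quartile scaling, which moved the median of all genes from 0.00 to 0.26, FLT1 was lost at -0.76 (adjusted p = 0.0694), and over all genes 3995 values were higher and 1670 lower in place of 3183 and 2535. Leaving out Islets High replicate 6, Pancreas High replicate 3 or 5, or Pancreas Low replicate 9 brought the count to 4. PLVAP alone was added without Islets Low replicate 5 or 9 or Pancreas High replicate 4 or 7, which gave 3.

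Genes whose level moved most like the mean of 8 tested members were ranked within each tissue by Pearson correlation of log2 scaled CPM over libraries, as a description. In the 18 islet libraries these were ANO2 at 0.949, MCAM at 0.925, CD93 at 0.916, ROBO4 at 0.911 and SEMA3F at 0.891. Without the 2 libraries farthest from the median these were 0.851, 0.756, 0.803, 0.744 and 0.759. CD93, MCAM and ROBO4 encode surface proteins of endothelial cells. MCAM is also in the mural cell list used above, with medians of 9.33 CPM in the pancreas and 17.8 CPM in islets. In the 17 pancreas libraries the genes ranked highest were GATAD2B at 0.856, EPAS1 at 0.809, HYCC2 at 0.805, PALM2AKAP2 at 0.786 and KLF13 at 0.770. Without the 2 libraries farthest from the median they were at 0.813, 0.765, 0.707, 0.754 and 0.662. EPAS1 encodes a hypoxia-inducible factor abundant in endothelium. The libraries differ in depth and makeup, most of all in the pancreas, and these correlations share that variation.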

How the data were processed

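The authors deposited raw counts of reads for each Ensembl gene, with 1 table per tissue, and these counts were used unchanged. The tools in the submitters' processing notes are HISAT2 2.0.2, FastQC, Subread and edgeR, and the build is susScr3; their order is not recorded. Counting options and strand setting are not given. Identifiers were matched to symbols through a table of Ensembl names (14857 of 25880), and 1 column matched no sample and was not used. Tissue was taken from the title and density from its label; each library of a group has an animal code of its own. The animal code pairs the tissues, so a fit with the animal as a block was an alternative.

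Genes passing filterByExpr were tested with edgeR 4.0.16 (R 4.3.3; robust quasi-likelihood fit, TMM scaling), with Benjamini-Hochberg adjustment at 0.05. Alternatives used RLE and upper-quartile scaling, no filter or 1 CPM, DESeq2 1.42.0, limma 3.58.1 (voom), omission of genes above 5% of a library, subsets, covariates and each library left out. The fits were tested on simulated counts: of 100 genes changed by 2 log2 units, 90 were recovered for the tissue comparison, 94 in the pancreas, 98 in islets and 53 for the difference between effects.

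All members were named in every comparison, and of other lists at most the 4 called genes with the largest change, with exceptions stated. The members and lists were chosen with earlier results of these data known. Floors and intervals on counts cover counting error only.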

Additional observations from a re-analysis of the deposited data

Results flagged for a closer look

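In the Low pancreas group, the library of animal 15LS30 stood far above the other 8 for 4 members: PECAM1 at 125 CPM (next 47.9), FLT1 at 95.5 CPM (next 52.4), TEK at 67.4 CPM (next 30.9) and PLVAP at 200.0 CPM (next 75.3). It is one of the 2 deeper libraries of that group. In the same group TIE1 was highest in the shallow library of animal 14HS7, at 59.0 CPM (next 27.8), which rests on 18 counts. In High islets the library of animal 15AS28 stood above the other 7 for CDH5, at 38.6 CPM (next 16.3), and for PLVAP, at 152 CPM (next 69.9). These 7 come from 36 groups of values tested with Dixon's criterion, and chance gives about 1 in 20.

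The density effect differed between the tissues for KDR, by -1.25, and for FLT1, by -1.02 (log2, islets minus pancreas, edgeR interaction test). These are 2 of 9 members, beside 17.7% of 14337 tested genes lower, 22.2% higher and 39.9% in either direction. With the deeper pancreas libraries alone, 2 of them Low, the values were -0.95 (SE 0.46) and -0.64 (SE 0.48), which did not pass. In that fit 52 of 15210 genes were higher and 9 lower, so calls were lost over all genes and not only among the members.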

How the results depend on the processing

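Counts of members called moved as follows. For islets against pancreas the 6 became 3 without a filter on low counts and 2 with Low libraries only. Over all genes 9282 of 24780 and 3714 of 12035 fell in these fits. The other 11 alternatives gave 5 to 7, and leaving out 1 library gave 5 to 8. For density in the pancreas the 4 became 0 with libraries of at least 1000000 counts, 0 with the code digits and 0 with the acinar level as covariate, where PECAM1 reversed to -0.15, with 3 to 5 in the other 8, of which 1 each was lower with upper-quartile scaling, DESeq2 and animals labelled alike, and 2 to 6 when 1 library was left out. For density in islets the count was 0 in all 11 alternatives and 0 to 0 when 1 library was left out. For the difference between the density effects the 2 became 1 with upper-quartile scaling, 0 with the deeper pancreas libraries, and 4 each with no filter, a 1 CPM filter, limma-voom, without genes above 5% of a library, with the animal as replicate block and with animals labelled alike in both tissues, and 2 to 4 when 1 library was left out. The animal block gave 7 members for islets against pancreas. Density within 1 tissue has no pairs, since an animal gives 1 library there. Upper-quartile scaling moved the median of all genes from -0.01 to -0.14 for islets against pancreas. Depth limits the Low pancreas group, where 7 libraries hold 33 to 97 endothelial counts each, and the calls there rest on them.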
